A study of Mus musculus with 15 samples.

Results

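The 10 neuronal cytoskeleton genes described here were followed through 15 mouse samples: Tubb3, Tubb2b, Nefl, Nefm, Ina, Map2, Mapt, Dcx, Stmn2 and Gap43. They were named by symbol, with no threshold on their values but with earlier results of the series known, and are 10 of the 55359 genes in the deposited matrix. Poly-A selected RNA was sequenced in 5 groups of 3 samples. The 46LCNEC_cell samples were adherent cultures of 46LCNEC, a line made from lung tumors that followed Ad-CMVcre, an adenovirus with Cre under the general CMV promoter. The 57SCLC_cell samples were floating aggregates of 57SCLC, a line made from tumors that followed Ad-K5cre, with Cre under the basal cell keratin K5 promoter. Both lines came from QKO mice, in which floxed tumor suppressor alleles, Rb1 and Trp53 among them, are recombined by Cre and which also carry null Rbl1. The 46LCNEC_allo and 57SCLC_allo samples were subcutaneous tumors that grew from these lines in syngeneic, immunocompetent QKO mice, so they hold host cells as well as tumor cells. Lung was normal lung of littermates of the hosts. Each tumor type is represented by 1 line, and culture samples came from separate dishes or flasks of it.

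The genes belong to microtubules, intermediate filaments and the growth cone. Tubb3 and Tubb2b encode beta-tubulins, the subunits of microtubules that neurons favor. Nefl, Nefm and Ina encode the neurofilament light and medium chains and alpha-internexin, which co-assemble into the intermediate filaments of axons. Map2, Mapt and Dcx encode proteins that bind and stabilize microtubules: MAP2 in dendrites, tau in axons and doublecortin in young migrating neurons. Stmn2 encodes stathmin-2, which binds free tubulin and is needed for axon repair, and Gap43 encodes a membrane protein of the growing axon tip. High-grade neuroendocrine lung tumors are known for neuronal gene expression, which makes these genes of interest in the 2 lines.

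Reads assigned to genes ranged from 9480244 in 57SCLC_allo replicate 1 to 44876572 in 57SCLC_cell replicate 3. Levels below are normalized counts, the reads of a gene divided by the size factor of its sample, and 1 read was worth between 0.521 and 2.39 normalized counts. The labels were checked against marker genes. The summed level of 6 neuroendocrine markers (Chga, Chgb, Syp, Scg2, Scg3, Insm1) was 46846 to 60948 in 57SCLC_cell and 38071 to 51998 in 57SCLC_allo. It was 16.9 to 36.6 in 46LCNEC_cell and 20.0 to 46.5 in 46LCNEC_allo, below the 201 to 214 of Lung, so in 46LCNEC samples the neuroendocrine part of the label had almost no support from the RNA of these markers. At the protein level, which was not measured in these samples, the paper reports positive staining of LCNEC cells for NCAM and of LCNEC allografts for chromogranin A. The 5 lung epithelial markers summed to 343554 to 450751 in Lung and to at most 205 elsewhere. Markers of host cells were higher in tumors than in cultures: 5 endothelial markers summed to 5070 to 8793 in 46LCNEC_allo, against 371 to 454 in its cells, and to 2534 to 3569 in 57SCLC_allo, against 63.3 to 88.6 in its cells. The 6 fibroblast markers do not mark host cells in the 46LCNEC line, whose cultures alone summed to 73984 to 84202, above the 23513 to 27820 of Lung; they summed to 309554 to 688074 in 46LCNEC_allo, 24.0 to 31.1 in 57SCLC_cell and 32249 to 50894 in 57SCLC_allo. In tissue samples, a lower level from fewer cells of a type cannot be told apart from less RNA per cell. Whole-gene counts do not show a deletion of part of a gene: Rb1 held 85.7 to 414 normalized counts per group on average, Rbl1 830.1 to 2881 and Trp53 997 to 1465. Replicates of 57SCLC_cell were uneven. The chi-square per degree of freedom was 2.80 between replicates 1 and 2. It was 127 and 144 between these and replicate 3, so replicate 3 stood apart. Rb1 held 777 normalized counts in replicate 3, against 229 and 236 in replicates 1 and 2. The 46LCNEC_allo tumors also differed widely from each other, with 92.6 to 133 over their 3 pairs.

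Of the 10 members, 8 had more than 3 reads in a sample and 2 had none. Tubb3 was listed at 0 in all 15 samples, and so was Nefl. Tubb3 (chromosome 8, 124138163 to 124150092, plus strand, GRCm39) lies in a run of 73 consecutive protein-coding genes, from Crispld2 to Galnt2 (120719177 to 125072466, 4.35 Mb), that were all at 0 in every sample. The run holds Rpl13, a ribosomal protein gene, Cox4i1, a subunit gene of cytochrome c oxidase, and Aprt, a purine salvage enzyme gene, which are used in nearly every cell. It was the 2nd longest run of its kind, and across the annotation 17.0% of 21627 protein-coding genes were at 0 in all samples. Within 6 Mb of Tubb3 on either side, 55 of the 56 protein-coding genes outside the run had counts, and Pgbd5, the first gene after it, summed to 15322 normalized counts over the 15 samples. Nefl (chromosome 14, 68321268 to 68326544, plus strand) shares 1152 of its 3424 exon bases (33.6%) with exons of Nefm on the other strand. The zeros are therefore given only as listed values, and what produced them was not tested. No statement on class III beta-tubulin or on the neurofilament light chain can be drawn from these samples.

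**Figure D1:**
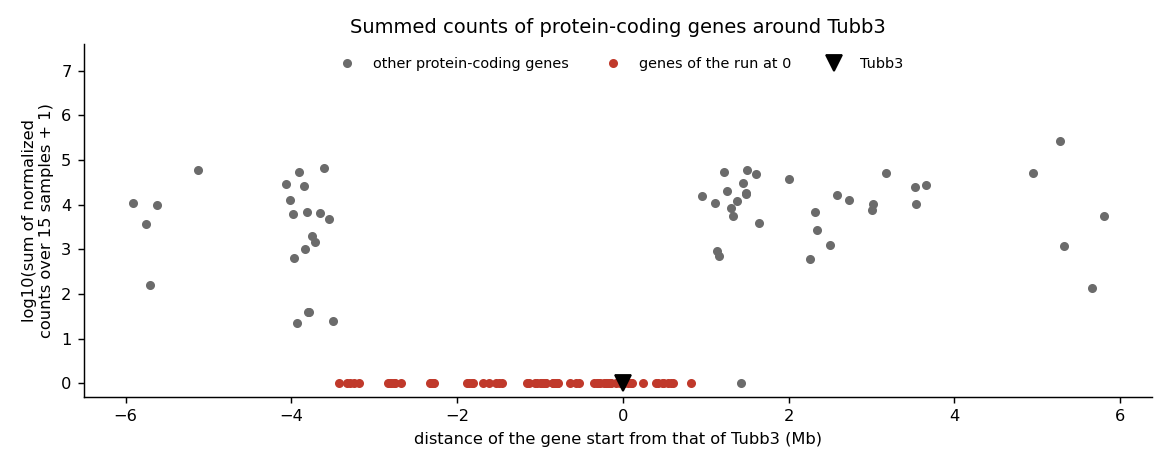
Each point is a protein-coding gene, placed by the distance of its start from that of Tubb3 in Mb (x axis) and by the log10 of its normalized counts summed over 15 samples plus 1 (y axis). The 73 genes of the run (red) lie at 0 with Tubb3 (triangle), while 55 of the other 56 genes (grey) have counts.

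The start regions of Ina, Dcx and Map2 are shown because these members, among those with a start region at hand, were called higher in 57SCLC both in culture and in tumors. The calls of Dcx were fixed by the filter on low values described below, and that of Map2 in tumors was lost in 4 alternative fits. RefSeq start regions (GRCm38.p6) were at hand for 4 of the 10 members (Tubb3, Ina, Map2 and Dcx). Each matched GRCm39 at 1 place, and the bases before the annotated gene start are printed 5′ to 3′ on the gene's strand. Capitals mark the motifs that were searched on both strands: the GC box GGGCGG (which may read on the opposite strand as CCGCCC), the CCAAT box, the E-box CAGCTG and, as the other E-box that was searched, CAGATG. These motifs do not overlap each other in the printed stretches.
Ina, chr19:47002870-47003068, plus strand: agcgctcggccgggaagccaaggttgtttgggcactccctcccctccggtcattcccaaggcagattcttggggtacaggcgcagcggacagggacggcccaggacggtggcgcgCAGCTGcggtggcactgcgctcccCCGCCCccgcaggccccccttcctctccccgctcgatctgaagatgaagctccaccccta
Dcx, chrX:142716308-142716465, minus strand: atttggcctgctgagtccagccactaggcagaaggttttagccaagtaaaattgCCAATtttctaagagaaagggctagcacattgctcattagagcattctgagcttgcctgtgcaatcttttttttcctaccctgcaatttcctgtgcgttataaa
Map2, chr1:66214238-66214326, plus strand: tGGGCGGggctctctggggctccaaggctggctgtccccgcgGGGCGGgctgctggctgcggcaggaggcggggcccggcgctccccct
Over the 250 bases before the RefSeq start, G and C made up 81.2% in Map2, 70.8% in Ina and 41.6% in Dcx, against a median of 52.4% over 32851 start regions. Over the same 250 bases Map2 held 5 GC boxes, Ina 2 GC boxes and 1 CAGCTG, and Dcx 1 CCAAT box. Bases past the annotated gene start are not printed, so only some of the GC boxes of Map2 and Ina are shown above. The table holds a 2nd start region for Dcx (44.8% G and C), in which none of these motifs was found. Of all start regions, 32.7% held a GC box, 33.8% a CCAAT box, 13% CAGCTG and 14.4% CAGATG. These matches are a description of the letters only.

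Tubb2b (chromosome 13, 34307245 to 34315143, minus strand) was the beta-tubulin of the list that was counted. The 46LCNEC_cell samples held 474, 418 and 478 normalized counts and the 46LCNEC_allo samples 421, 646 and 677, so these groups overlapped. The 57SCLC_cell samples held 1043, 1017 and 1031 and the 57SCLC_allo samples 2229, 2344 and 2095. Lung was lowest, with 181, 143 and 140.5. Every 57SCLC sample was above every 46LCNEC sample, and the 57SCLC tumors lay above the 57SCLC cells. Tubulin genes are near copies of each other, and how reads with several alignments were treated is not given in the sources used here, so a share of these reads may belong to Tubb2a or another tubulin.

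Ina (chromosome 19, 47003069 to 47013770, plus strand) showed the widest gap between the cultures of the 2 lines among the members tested. It held 8796, 8512 and 6478 normalized counts in 57SCLC_cell and 5798, 5739 and 5708 in 57SCLC_allo. In 46LCNEC_cell it held 23.5, 14.3 and 27.7, and in 46LCNEC_allo 5.30, 4.21 and 21.0. Lung held 3.74, 0.997 and 1.17, which together were 7 reads. The 57SCLC samples thus stood alone at 5708 or more, and the other 9 samples did not pass 27.7. Of its exon bases, 15.9% overlap Nt5c2 on the other strand.

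Nefm (chromosome 14, 68320039 to 68362305, minus strand) was low and uneven. The 57SCLC_allo samples held 199, 32.6 and 37.4 normalized counts, the highest of any group. The 57SCLC_cell samples held 4.91, 6.63 and 2.08, the 46LCNEC_cell samples 14.1, 9.93 and 11.5, and Lung 5.23, 2.99 and 0. In 46LCNEC_allo the values were 0, 2.11 and 43.1, so a single tumor overlapped the 57SCLC tumors. The neurofilament medium chain was thus near the counting floor in the 57SCLC cells, where its filament partner Ina was the highest member per length. In the annotation that gave the coordinates, exons of Nefl and of a long non-coding RNA on the other strand cover 38.2% of its exon bases. That annotation is a later release than the one used for counting. The long non-coding RNA does not appear in the count matrix, and Nefl, which does, shares 19.4% of the exon bases. Whether strand was used in counting is not given, and any effect of the overlap on the counts was not tested.

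**Figure D2:**
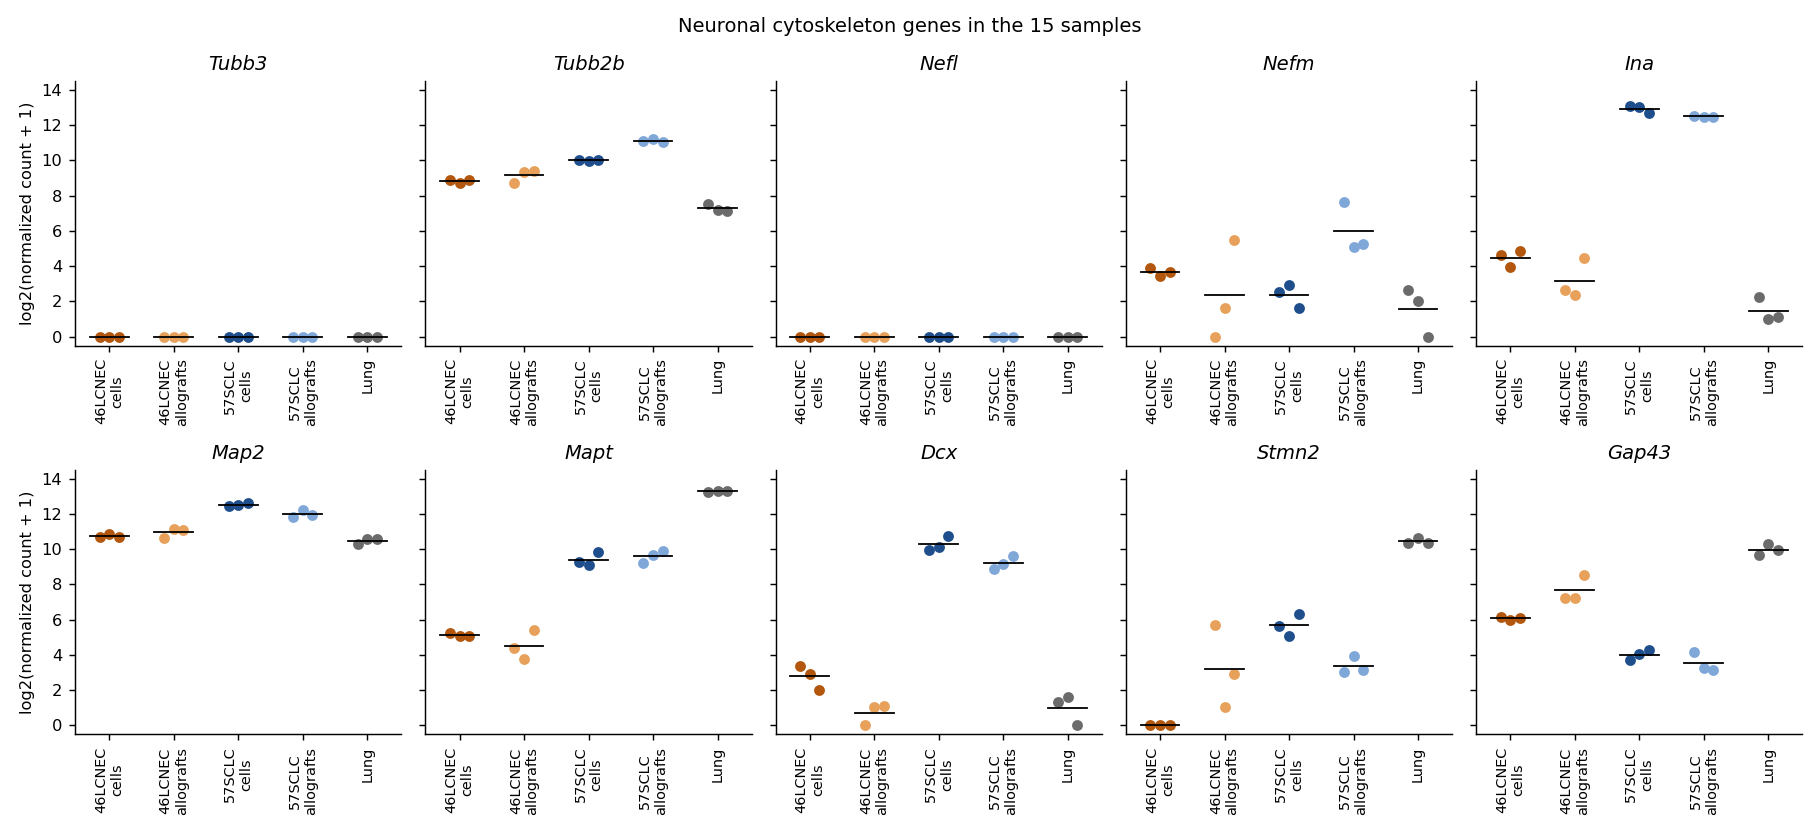
Each panel shows 1 gene, with log2(normalized count + 1) on the y axis and the 5 groups on the x axis; points are the 15 samples and bars the mean of the 3 logged values. Ina and Dcx are high in the 6 samples of 57SCLC, Mapt, Stmn2 and Gap43 are highest in Lung, and Tubb3 and Nefl are at 0 throughout.

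Map2 (chromosome 1, 66214327 to 66481746, plus strand) was counted well above the floor in every group. It held 5571, 5693 and 6343 normalized counts in 57SCLC_cell and 3639, 4814 and 3969 in 57SCLC_allo. The 46LCNEC_cell samples held 1663, 1833 and 1635, the 46LCNEC_allo samples 1588, 2236 and 2149, and Lung 1274, 1513 and 1501. The 57SCLC groups lay above all others, and the 2 groups of 46LCNEC overlapped.

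Mapt (chromosome 11, 104122024 to 104222946, plus strand), the gene of tau, had its highest level in normal lung. Lung held 9790.2, 10133 and 10147 normalized counts. The 57SCLC_cell samples held 610.4, 551 and 925 and the 57SCLC_allo samples 601, 796 and 967, and these groups overlapped. In 46LCNEC_cell it held 37.5, 32.0 and 32.3, and in 46LCNEC_allo 19.9, 12.6 and 40.9. Among tumor samples the order was that of Ina, with 57SCLC above 46LCNEC in each sample, but Lung was more than 10 times any tumor sample.

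Dcx (chromosome X, 142638838 to 142716307, minus strand) was high in the 57SCLC line and near the counting floor in the other groups. The 57SCLC_cell samples held 1005, 1095 and 1742 normalized counts, of which the highest was the replicate that stood apart, and the 57SCLC_allo samples 464, 565 and 772. The 46LCNEC_cell samples held 9.38, 6.62 and 3.08, and the 46LCNEC_allo samples 0, 1.05 and 1.11, which were 2 reads in all. Lung held 1.49, 1.99 and 0, from 4 reads.

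Stmn2 (chromosome 3, 8574151 to 8626667, plus strand) was also highest in Lung, with 1306, 1579 and 1318 normalized counts. The 57SCLC_cell samples held 49.1, 33.2 and 77.6 and the 57SCLC_allo samples 7.18, 14.2 and 7.94. No read was counted in the 3 samples of 46LCNEC_cell, whereas the 46LCNEC_allo tumors held 50.3, 1.05 and 6.64. The first of these tumors lay within the range of the 57SCLC cells, so 46LCNEC_allo overlapped both groups of 57SCLC.

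Gap43 (chromosome 16, 42068805 to 42161086, minus strand) had the order of the lines turned around. Lung held 804, 1229.7 and 1001 normalized counts. The 46LCNEC_allo tumors held 149.7, 152 and 373 and the 46LCNEC_cell samples 69.4, 61.8 and 66.9. The 57SCLC_cell samples held 12, 15.7 and 18.2 and the 57SCLC_allo samples 16.8, 8.49 and 7.94. Every 46LCNEC sample was above every 57SCLC sample, and the 2 groups of 57SCLC overlapped.

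Between genes, levels were compared per kilobase of exon bases. In 57SCLC_cell, Ina held 2394 ± 382 normalized counts per kilobase (SD, n = 3), or 79.5% of the sum over the 8 counted members, which leaves out Tubb3 and Nefl, ahead of Map2 with 282 ± 20.0. In 57SCLC_allo, Ina again led with 1736 ± 13.8 (71.7%), followed by Tubb2b with 361 ± 20.3. Map2 (82.3 ± 5.15) and Tubb2b (74.1 ± 5.42) led in 46LCNEC_cell, with Map2 slightly ahead. In 46LCNEC_allo, Gap43 (118 ± 67.6) stood beside Map2 (95.8 ± 16.9) and Tubb2b (94.4 ± 22.7), and these 3 did not differ beyond their spread. In Lung the order was Mapt (699 ± 14.1), Gap43 (533 ± 112) and Stmn2 (242 ± 26.7), with Ina at 0.594 ± 0.463. The make-up of the gene set thus differed by group: alpha-internexin made up most of the counted sum in the 57SCLC line, microtubule genes and Gap43 in the 46LCNEC line, and tau, GAP-43 and stathmin-2 in lung. Exon bases count all annotated transcripts, so genes with long untranslated or alternative exons appear lower.

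**Figure D3:**
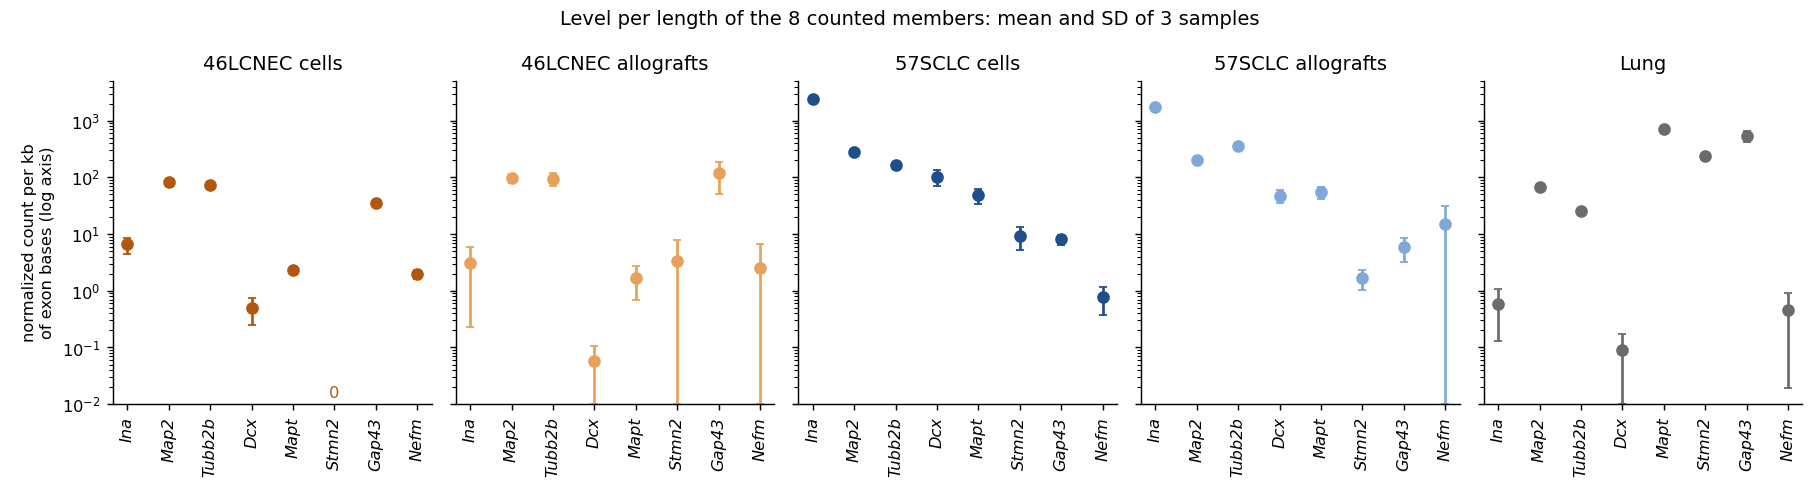
The y axis is a log axis of normalized counts per kb of exon bases, and the x axis lists the 8 counted members; points are means and bars SDs of 3 samples, and a bar that meets the lower edge passes below it. Ina leads in both 57SCLC groups at 2394 and 1736, whereas Mapt, Gap43 and Stmn2 lead in Lung, and the 0 marks Stmn2 in 46LCNEC cells.

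The first comparison asked how the 2 lines differ in culture. In 57SCLC_cell against 46LCNEC_cell, 7 of the 10 members passed the filter on low values (10 normalized counts or more in 3 or more of the 6 samples), and 6 were called higher and 1 lower. Calls needed an adjusted p from limma (Benjamini-Hochberg) no higher than 0.01 and a log2 fold change of 1 or more in either direction. Of all 16920 genes tested, 46.1% were called, 23.9% higher and 22.2% lower. Dcx and Stmn2 passed the filter through 57SCLC_cell alone and so had to differ; of the 5 that remain, Ina, Mapt, Map2 and Tubb2b were higher and Gap43 was lower. Log2 fold changes are on the scale of log2(normalized count + 1). Ina was higher by 8.48 (SE 0.24, adjusted p = 2.95e-08) and Mapt by 4.28 (SE 0.21, adjusted p = 5.74e-07). Map2 was higher by 1.78 (SE 0.08, adjusted p = 3.73e-07) and Tubb2b by 1.17 (SE 0.09, adjusted p = 6.04e-06). Dcx, given as a description, differed by 7.50 (SE 0.37; 1280.4 ± 402 against 6.36 ± 3.16). Stmn2, with 294 reads against 0, was at least 59.3-fold higher when the floor of 3 reads over the group is set for 46LCNEC_cell. Gap43 was lower by 2.06 on the log2 scale (-2.06, SE 0.22, adjusted p = 5.25e-05). Nefm was not tested here, with means of 4.54 ± 2.30 and 11.8 ± 2.09 (SD, n = 3). Against a fold change of 2 in place of 0, Tubb2b was no longer called (adjusted p = 0.108), while the other 6 remained called.

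In the tumors 7 members were tested, with Nefm in and Stmn2 out. In 57SCLC_allo against 46LCNEC_allo, 5 were called higher and 1 lower, where 30.4% of 17502 genes were called, 16.1% higher and 14.2% lower. Ina was higher by 9.32 (SE 0.53, adjusted p = 2.55e-05; 9.97 without 46LCNEC_allo replicate 3), Mapt by 5.08 (SE 0.44, adjusted p = 0.000131) and Tubb2b by 1.96 (SE 0.19, adjusted p = 0.000224). Dcx passed the filter through 57SCLC_allo alone, with 1273 reads against 2, a ratio of 828 (95% exact interval 229 to 6845, counting error only). Gap43 was lower (-4.16, SE 0.49, adjusted p = 0.000480). Map2 was higher by 1.06 (SE 0.17, adjusted p = 0.00197), just past the threshold on size, and was no longer called without 46LCNEC_allo replicate 1 (0.91), without 57SCLC_allo replicate 2 (0.95) or without 57SCLC_allo replicate 3 (1.09, adjusted p = 0.0102). Nefm was not called (3.63, SE 1.44, adjusted p = 0.0694). Without 46LCNEC_allo replicate 3, the tumor with 43.1, Nefm passed the filter through 57SCLC_allo alone and so had to differ. Its log2 fold change of 5.17 in that fit is a description. It was 2.44 without 46LCNEC_allo replicate 1 and 2.80 without 57SCLC_allo replicate 1. The fibroblast sums given above were higher in 46LCNEC_allo than in 57SCLC_allo in every tumor, and their part in these differences was not tested. They differed in the same direction between the cultures.

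**Figure D4:**
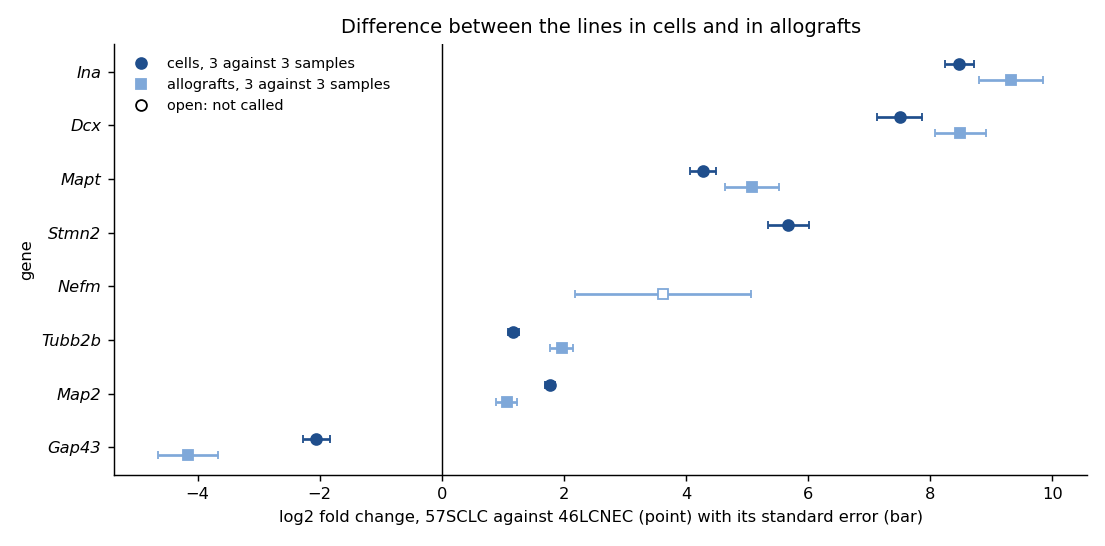
Points are the log2 fold changes of 57SCLC against 46LCNEC from limma (x axis) for each tested gene (y axis), in cells (circles) and in allografts (squares), each from 3 against 3 samples, with standard errors as bars. Ina and Dcx lie between 7.50 and 9.32 in both settings, Gap43 lies below 0, Nefm (open) was not called, and the place of Stmn2 depends on the value added before the logarithm, as 1 group was at 0.

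The next comparisons asked whether the genes differ between a line and its tumors. In 57SCLC_allo against 57SCLC_cell, 8 members were tested, and Tubb2b and Nefm were called higher and Dcx and Stmn2 lower. Of 17078 genes tested, 16.6% were called, 14.4% higher and 2.29% lower. Tubb2b was higher by 1.11 (SE 0.08, adjusted p = 1.29e-05), but by 0.98, under the threshold on size, with upper quartile scaling. Map2 (-0.51, adjusted p = 0.00915), Ina (-0.45, adjusted p = 0.0197), Gap43 (-0.49, adjusted p = 0.326) and Mapt (0.19, adjusted p = 0.545) were not called. Nefm passed the filter through the tumors alone and so had to differ; its log2 fold change of 3.62 (SE 0.69) is a description, and was 2.79 without 57SCLC_allo replicate 1. Stmn2 was lower (-2.31, SE 0.40, adjusted p = 0.00221) and Dcx was lower (-1.08, SE 0.24, adjusted p = 0.00868). These calls and that of Nefm were each lost in several fits that left out 1 sample. None of the 3 held in the fit of all 15 samples (adjusted p = 0.0222 to 0.0967). The call of Dcx was lost without 57SCLC_cell replicate 2 or 3 or 57SCLC_allo replicate 1 or 2, with a log2 fold change of -0.84 without 57SCLC_cell replicate 3, and also with a pseudocount of 0.1, without the filter and with edgeR (adjusted p = 0.0106 to 0.0111). The call of Nefm was lost without 57SCLC_cell replicate 1 or 3 or 57SCLC_allo replicate 3 (adjusted p = 0.0108 to 0.0111). The call of Stmn2 was lost without 57SCLC_cell replicate 1 or 57SCLC_allo replicate 1 or 3 (adjusted p = 0.0109 to 0.0135). The endothelial sums given above were higher in these tumors than in the cells, and Vim, a filament gene of mesenchymal cells, was at 15.1 ± 4.31 in the cells and 9277 ± 2808 in the tumors; the part of host cells in the values of the members was not tested.

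In 46LCNEC_allo against 46LCNEC_cell, Gap43 alone was called among 6 members tested, higher by 1.61 (SE 0.37, adjusted p = 0.00908). Of 16375 genes tested, 22.8% were called, 14.4% higher and 8.45% lower. The call was lost without any 1 of the 3 culture replicates or without 46LCNEC_allo replicate 1 (adjusted p = 0.0101 to 0.0369), and under 2 other scalings. Ina (-1.30, adjusted p = 0.112), Nefm (-1.30, adjusted p = 0.411), Mapt (-0.61, adjusted p = 0.282), Tubb2b (0.32, adjusted p = 0.218) and Map2 (0.20, adjusted p = 0.279) were not called. 46LCNEC_allo replicate 3 held more Ina, Nefm and Gap43 than the other tumors. Without it, Ina and Nefm passed the filter through the cultures alone and so had to differ. Their log2 fold changes in that fit, -1.95 for Ina and -2.85 for Nefm, are descriptions. Nefm was at -0.12 without 46LCNEC_allo replicate 1. The tumor of replicate 3 had the lowest fibroblast sum of the 3 (309554 against 413580 and 688074), and what part this had in its values was not tested. Dcx (6.36 ± 3.16 against 0.720 ± 0.624) and Stmn2 (0 in all cultures) did not pass the filter.

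Whether the change from culture to tumor differed between the lines was tested with an interaction term over the 12 samples of both lines. Stmn2 was called among the 8 members tested (-5.53, SE 1.24, adjusted p = 0.00455), where 17.5% of 18440 genes were called, 10.8% higher and 6.78% lower. Its level went down from culture to tumor in 57SCLC and up from 0 in 46LCNEC, so the size of the term depends on the value added before the logarithm (-8.61 with 0.1 and -3.59 with 5). The call was lost without any 1 of the 3 samples of 46LCNEC_cell, without 57SCLC_cell replicate 1 or 3 or without 57SCLC_allo replicate 1 or 3 (adjusted p = 0.0116 to 0.0129), and it held without 46LCNEC_allo replicate 1, the tumor with 50.3 (-4.29, adjusted p = 0.00165), and without replicate 2 of that group (-6.62). Gap43 was close to the threshold (-2.10, SE 0.55, adjusted p = 0.0107) and was called by edgeR (adjusted p = 0.00955) and DESeq2 (adjusted p = 0.00177), and without 46LCNEC_allo replicate 1 or 2 or 57SCLC_allo replicate 1 (adjusted p = 0.00583 to 0.00896). Map2 (-0.72, SE 0.20, adjusted p = 0.0136) and Tubb2b (0.79, SE 0.22, adjusted p = 0.0145) missed the thresholds on size and on p. Nefm (4.92, SE 1.59, adjusted p = 0.0294) missed only that on p. For Ina, Mapt and Dcx the terms were 0.85, 0.80 and 0.99 (adjusted p = 0.303, 0.239 and 0.203), with standard errors of 0.61, 0.51 and 0.58. Without 46LCNEC_allo replicate 3, Nefm (6.47, adjusted p = 0.000519) and Ina (1.5, adjusted p = 0.00351) were called; without 46LCNEC_allo replicate 1 or 57SCLC_allo replicate 1 the term of Nefm was 3.74 or 4.10.

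Against normal lung the members split. In 57SCLC_cell against Lung, 4 of 7 tested members were called higher and 3 lower, where 53.8% of 18467 genes were called, 21.1% higher and 32.7% lower. Map2 was higher by 2.04 (SE 0.09, adjusted p = 4.61e-07) and Tubb2b by 2.74 (SE 0.12, adjusted p = 4.12e-07). Ina and Dcx passed the filter through 57SCLC_cell alone, with ratios of 3599 (95% exact interval 1747 to 8953) and 1033 (403 to 3794). Mapt (-3.88, SE 0.18, adjusted p = 4.50e-07), Stmn2 (-4.77, SE 0.29, adjusted p = 1.93e-06) and Gap43 (-5.95, SE 0.23, adjusted p = 1.64e-07) were lower. In 57SCLC_allo the same 7 members had the same calls, of which those of Ina and Dcx were again fixed by the filter. So was that of Nefm, at 139 reads against 10, a ratio of 22.1 (11.7 to 47.2). Its log2 fold change of 4.45 was 3.62 without 57SCLC_allo replicate 1, the tumor with 199, and 3.67 without Lung replicate 3, and its adjusted p was 0.0124 with a pseudocount of 0.1. There 45.8% of 18517 genes were called, 18.9% higher and 26.9% lower.

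In 46LCNEC_cell against Lung, Ina and Tubb2b were called higher and Mapt, Stmn2 and Gap43 lower among 6 members tested, where 55.6% of 18142 genes were called, 20.6% higher and 35.0% lower. Ina passed the filter through 46LCNEC_cell alone and Stmn2 through Lung alone, so both had to differ. Tubb2b was higher by 1.56 (SE 0.14, adjusted p = 6.15e-06), and Ina, at 74 reads against 7, had a ratio of 10.3 (4.77 to 26.6). Mapt was lower (-8.17, SE 0.10, adjusted p = 7.24e-11) and Gap43 was lower (-3.90, SE 0.17, adjusted p = 3.90e-08). Stmn2, with no read in 46LCNEC_cell and 4456 in Lung, was at least 1522-fold higher in Lung. Map2 was not called (0.26, SE 0.09, adjusted p = 0.0232). In 46LCNEC_allo, Tubb2b was called higher (1.88, SE 0.23, adjusted p = 0.000591) and Mapt (-8.78, SE 0.39, adjusted p = 1.16e-05), Stmn2 (-7.23, SE 1.08, adjusted p = 0.00133) and Gap43 (-2.28, SE 0.38, adjusted p = 0.00227) lower among 5 tested, where 35.6% of 18033 genes were called, 13.4% higher and 22.1% lower. The log2 fold change of Stmn2 was -8.46 without 46LCNEC_allo replicate 1 and -6.14 without replicate 2. The call of Gap43 was lost without Lung replicate 2 (-2.13, adjusted p = 0.0133) or replicate 3 (-2.28, adjusted p = 0.0121). All 4 comparisons share the 3 Lung samples. Lung also held more signal of a nerve and glia list: 8 of 8 genes were above the floor, with a sum of 17288 to 19095, against 10622 to 13091 in 57SCLC_cell, 7935 to 9708 in 57SCLC_allo, 3366 to 3772 in 46LCNEC_cell and 1353 to 1515 in 46LCNEC_allo, where 7 of 8 were above it and Cdh19 was not. Most of the sum in Lung was Prx (12698) and Mbp (3159), which other lung cells also use, while the Schwann cell genes Sox10 and Cdh19 held 30.6 and 31.3 on average. The part of nerve, epithelial or other lung cells in the levels of Mapt, Stmn2 and Gap43 was not tested.

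The list was set beside 75 other cytoskeleton genes. In 57SCLC_cell against 46LCNEC_cell, 29 of the 71 tested were called higher and 17 lower, with a median log2 fold change of 0.60 against 0.00 over all genes, and in the tumors 27 of 70 were called higher and 13 lower (0.31 against 0.01). Beside the 23.9% higher and 22.2% lower of all genes in culture, the lower count and several of the family counts below lie near the share over all genes, and with 6 to 15 genes tested in a family the counts are descriptions. The growth cone genes had the largest share of calls in culture, 8 higher and 3 lower of 11. Stmn3, another stathmin, held 3806 normalized counts in 57SCLC_cell and 2.75 in 46LCNEC_cell, and Dpysl5, a collapsin response mediator, 6756 and 20.3, whereas Dpysl3 (391 and 8649) and Basp1, a membrane protein related in function to GAP-43 (2241 and 11111), were lower. Among intermediate filaments, 3 of 6 tested were higher and 2 lower. Nefh, the heavy neurofilament chain, held 9037 ± 923 in 57SCLC_cell and 16.8 ± 5.32 in 46LCNEC_cell (log2 fold change 9.03, SE 0.22, adjusted p = 1.73e-08). Prph, the peripheral neuron filament, held 295 and 11.2. Vim (15.1 and 107191; -12.73, SE 0.19, adjusted p = 3.49e-09) and Nes, the nestin of progenitor cells (298 and 10188), were lower.

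Of the 9 tubulins tested in culture, 2 were higher, 2 lower and 5 not called. Tuba8 (1303 against 3.66) and Tubb4a (4227 against 40.0) were higher, and Tubb6 (2119 against 17798) and Tuba1c (677 against 1479) lower, in 57SCLC_cell. Of the 10 microtubule-associated genes, 5 were higher, with Map7 (1832 against 12.5) and Dclk3 (34.0 against 0.624) leading, and 2 lower, the doublecortin relative Dclk1 (136 against 2098) and Map4 (4708 against 11375). Axonal motors split 3 and 3 of 10. Kif1a (5839 against 699.6) and Kif5a (2550.4 against 435) were higher, and Kif21b (183 against 2103) and Kif21a (395 against 1674) lower. Of 10 actin, spectrin and ankyrin genes, 2 were higher, the spectrin gene Sptbn4 (321 against 16.1) among them, and 3 lower, Fscn1 (2384 against 29257) and Ank2 (182 against 1479.6) among them. Of 15 tested enzymes that modify tubulin or tau, 6 were higher, led by the tubulin carboxypeptidase Vash1 (1301 against 74.1) and the carboxypeptidase Agbl4 (149.7 against 19.2), which removes glutamates from tubulin, and 2 lower, Vash2 (388 against 1881) and its partner Svbp (160.1 against 526). Synm, Atat1 and Cdk5r2 were listed at 0 in all samples, like Tubb3 and Nefl.

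**Figure D5:**
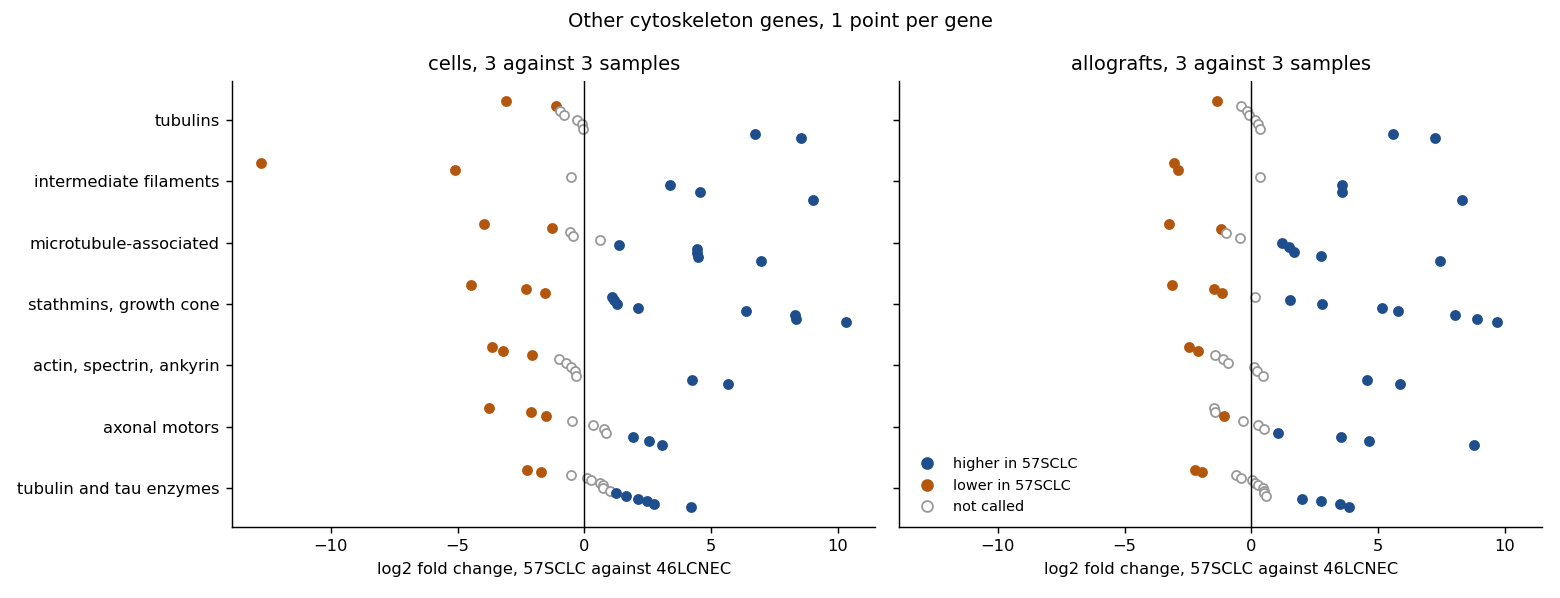
Each point is 1 of the other cytoskeleton genes, placed by its log2 fold change of 57SCLC against 46LCNEC (x axis) in its family (rows), in cells (left) and allografts (right), 3 against 3 samples each. Calls go both ways in every family: 29 higher and 17 lower in cells, and 27 higher and 13 lower in allografts; the lowest point in cells is Vim, at -12.73, which lies at -2.90 in the allografts.

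The genes most like each member were sought by Pearson's r of log2(normalized count + 1) over the 15 samples among 19616 genes. As the 5 groups give most of the spread, r describes the order of the groups. Ina was most like Usp44 (r = 0.996) and Vwa5b1 (0.993), and Dcx was most like Ppfia3 (0.993) and Stxbp5l (0.992). Mapt was most like Eps8l1 (0.992) and Cdo1 (0.992), Stmn2 like Slc22a18 (0.975) and Mapre2 (0.974), and Gap43 like Stard3 (0.986) and Naaa (0.985). Map2 was most like Gm5141 (0.983), and Tubb2b like Hacd1 (0.967) and Serf1 (0.966). Nefm had the weakest likeness, with Dnd1 (0.831) and Igkv4-63 (0.811). Among the members, Ina and Dcx followed each other most closely (r = 0.978), and Ina and Gap43 ran in opposite directions (r = -0.911).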

How the data were processed

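RNA of 15 samples was sequenced, in 5 groups of 3. Per the paper's methods, the authors aligned reads with Rbowtie2 to GRCm39, assigned them to genes of GENCODE M27 with featureCounts and normalized them with DESeq2; versions and the strand and multi-mapping settings are not given in the sources used here. The deposited signal is thus a count divided by a size factor of the sample. All non-zero values were whole multiples of 1 step per sample (100% within 0.1 reads), which gave back the reads: 9480244 to 44876572 per sample. Of the gene IDs, 98.9% were found in GENCODE release 39, the source of coordinates; 1347 genes without a name stayed in the tests.

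Genes that reached 10 normalized counts in 3 or more of the 6 samples compared were tested with limma 3.58.1 (R 4.3.3, trend) on log2(normalized count + 1), adjusted by Benjamini-Hochberg over all genes tested, and called at an adjusted p of at most 0.01 and an absolute log2 fold change of at least 1. The interaction was fitted on 12 samples. Alternatives were other scalings, pseudocounts of 0.1 and 5, no filter, edgeR 4.0.16 and DESeq2 1.42.0 on the recovered reads, other thresholds, all 15 samples in 1 fit and leaving out each replicate, for which the filter asked for 2 samples, a choice made after seeing the data. On recovered reads, edgeR called 7800 genes between the cultures and limma 7799. The fits were also run on simulated counts, with the same spread setting for every gene and changes only in genes well above the floor. These runs do not cover uneven replicates or members near the floor.

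Members and lists were chosen with earlier results of these data known. Named were all members, the deleted genes, at most 2 called genes per list and direction with the largest change between the cultures, and per member the 2 genes of highest likeness. Intervals (95%, exact) and the floor of 3 reads cover counting error only. Culture replicates were dishes or flasks of 1 line, so their p-values measure the spread between these. Some results are not reported here.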

Additional observations from a re-analysis of the deposited data

Results flagged for a closer look

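The difference between the lines in the change of Stmn2 from culture to tumor was -5.53 on the log2 scale (57SCLC minus 46LCNEC). It is the limma interaction term over 12 samples (adjusted p = 0.00455), and stands here because that term was called. The call was lost in 8 alternative fits, and the size of the term depends on the value added before the logarithm. Stmn2 reached 10 normalized counts in all 3 samples of 57SCLC_cell, in 1 of each tumor group and in no sample of 46LCNEC_cell. In 57SCLC all 3 tumors lay below all 3 cultures (9.76 ± 3.83 against 53.3 ± 22.5 normalized counts, SD, n = 3). In 46LCNEC all 3 tumors lay above cultures without a read (19.3 ± 27 against 0), and 1 tumor held most of the counts.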

How the results depend on the processing

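Of the alternative values of single members, 1044 kept direction and side of the threshold, 16 gained and 46 lost a call, and 3 turned: Nefm in 46LCNEC_allo against its cells with edgeR (0.38) and DESeq2 (0.36), and the interaction of Dcx with a pseudocount of 5 (-0.12), none of them called. The count of members called in 46LCNEC_allo against its cells (1) was 0 with total reads, upper quartile scaling and a test against a fold change of 2, and 0 to 3 with a replicate left out (at 3, the calls of Ina and Nefm were fixed by the filter). In 57SCLC_allo against its cells (4) it was 0 with the test against a fold change of 2, 1 in the fit of all 15 samples and 2 to 3 with a replicate left out. In 46LCNEC_allo against Lung (4) it was 2 with the test against a fold change of 2. For the interaction (1) it was 2 with upper quartile scaling, TMM, a pseudocount of 5, edgeR, DESeq2 and the fit of all 15 samples, 3 at an adjusted p of 0.05, 0 in the stricter test against a fold change of 2, and 0 to 3 with a replicate left out. Over all genes, the test against a fold change of 2 called 2861 in place of 5312 between the tumors, 1414 in place of 3738 in 46LCNEC_allo against its cells, 1700 in place of 2842 in 57SCLC_allo against its cells, 3451 in place of 6412 in 46LCNEC_allo against Lung and 1293 in place of 3233 for the interaction; without 46LCNEC_cell replicate 3, 46LCNEC_allo against its cells had 2428. The test against a fold change of 2 is stricter by construction; the cause of the other shifts was not tested. Scaling by total reads moved the split of calls between the tumors from 2821 higher and 2491 lower to 3576 and 1964, and the median of all genes by 0.26 (log2), with no member changing direction. A replicate block between the cultures left 7 members and 7797 genes called (7799 without). Same-numbered cultures did not deviate together (r = 0.0916, -0.0837 and -0.00619 over genes), and replicate 3 of 57SCLC_cell was closest to replicate 2 of 46LCNEC_cell (0.118). Groups near the floor held few reads of Nefm, Stmn2, Dcx, Ina and Gap43 (20 reads of Gap43 in 57SCLC_allo), which limits the precision of their fold changes.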

Other observations

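Other cytoskeleton genes changed between culture and tumor, and those named here were chosen after their values were seen. In 46LCNEC_allo against 46LCNEC_cell, 4 of 67 tested genes of the wider lists rose and 6 fell, beside 14.4% and 8.45% of all genes. The 3 that fell among axonal motors were Kif1a (from 699.6 to 16.4 normalized counts, limma log2 fold change -5.98, adjusted p = 0.000843), Kif5a (from 435 to 104) and Kif5c (from 1196 to 327), kinesins that carry vesicles and other cargo along microtubules. Map6, which protects microtubules from cold, rose from 116 to 1633 and Vash1 from 74.1 to 795.

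In 57SCLC_allo against 57SCLC_cell, 8 of 71 rose and 1 fell, beside 14.4% and 2.29% of all genes. Vim rose from 15.1 to 9277, Nes from 298 to 1767 and Des, the muscle filament gene, from 173 to 1439; endothelial sums were also higher in these tumors, and their part was not tested. Nefh fell from 9037 to 3659 (-1.30), while Ina, its filament partner, was not called (-0.45, adjusted p = 0.0197); the difference between these genes was not tested.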
